A study of Mus musculus with 18 samples.

Results

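The genes described here detoxify foreign compounds or pump them out of the cell. A list of 40 such genes held 3 ligand-activated sensors, 16 cytochromes P450, 9 other enzymes of phase I, 9 conjugating enzymes and 3 efflux pumps. Of these, 38 had a probe set assigned to that gene alone and were measured, among 19938 named genes; Ces2c and Por were not analysed here. Where a gene had several probe sets, the one that was brightest on average over the 18 arrays stood for it. All 38 passed a filter on low values, which kept genes above the lower quartile of an array in at least 3 arrays and left 17316 genes for testing.

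The series asked whether the transcription factor Stat3 is needed for intestinal tumours to progress in APCmin mice, whose mutated Apc allele activates WNT signalling. RNA was measured on Affymetrix arrays in 6 groups of 3: control epithelial cells (replicates 1 to 3), Stat3-deleted epithelial cells (4 to 6), control male tumours (7 to 9), Stat3-deleted male tumours (10 to 12), control female tumours (13 to 15) and Stat3-deleted female tumours (16 to 18). Control mice carried floxed Stat3 alleles (Stat3fl/fl), and the deleted mice (Stat3-/- in the labels) also carried a Cre recombinase driven by the Villin promoter, which is active in the gut epithelium, so the other cells of a tumour were not targeted. Per the series text, the tumour mice carried APCmin/+ and both genotypes were studied in both sexes. The labels give no age, and for the epithelial cells neither sex nor Apc genotype. They call every sample, epithelial cells included, a colorectal tumour induced with azoxymethane and dextran sulfate, whereas the series text places APCmin tumours mostly in the small intestine. Separate animals are not stated, so p-values reflect how far these samples spread, and part of that may be technical.

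Foreign compounds are handled in steps. Sensors in the cell bind them and switch on target genes: the aryl hydrocarbon receptor (Ahr) acts on Cyp1a1 and Cyp1b1, and the pregnane X receptor (Nr1i2) and constitutive androstane receptor (Nr1i3) act on CYP2 and CYP3 genes. Phase I enzymes, mainly cytochromes P450, oxidise or hydrolyse the compound, phase II enzymes attach glutathione, sulfate or glucuronic acid, and ATP-driven pumps export the product. In the small intestine this machinery is strongest in mature enterocytes, the absorptive cells of the villus.

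Stat3 had log2 values between 9.74 and 10.35 in the 9 control arrays and between 7.73 and 8.46 in the 9 deleted arrays. Its difference was -1.96 in epithelial cells, -2.09 in male and -1.87 in female tumours, although whether the probes lie in the deleted exons is not known. The mean of 10 pan-epithelial markers lay between 11.02 and 11.63 in every array. The mean of 15 enterocyte markers was 12.15 to 12.64 in epithelial cells and 8.37 to 11.49 in tumours, and the mean of 12 fibroblast markers was 6.68 to 7.08 in epithelial cells and 8.70 to 9.97 in tumours. Control tumour replicates 9 and 15 stood apart: their enterocyte means were 8.61 and 8.37, against at least 10.12 in the other tumours. Gata4, a factor of the proximal small intestine, was 6.92 and 6.84 there and 8.86 to 9.86 in the other tumours, while Hoxd13, a factor of the distal gut, was 8.25 and 9.10 there and 4.82 to 5.59 elsewhere among tumours. The mean of 10 colon markers, Hoxd13 included, was 7.35 and 7.37 there and 5.88 to 6.92 in the other tumours. Not all of them were higher: Slc26a3 was 6.04 and 6.22 against 6.85 to 9.28, and Car4, Aqp8 and Mettl7b were not raised. Effects in tumours are therefore also given without these arrays. In bulk tissue, fewer cells of a type and less RNA per cell cannot be told apart.

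Promoters of 4 members are shown as examples. Cyp1a1 is the classical target of Ahr, and Ces2a is an intestinal carboxylesterase. Cyp2c65 and Cyp2c66 are neighbours whose differences between Stat3-deleted and control tumours were among the 3 largest, with that of Cyp2c55. These differences did not pass. No promoter was available for Fmo1, the only member that passed between the tumour genotypes. The sequences are from RefSeq on GRCm38, on the plus strand, from 250 bases before the start site to the base numbered 20 from it, and lie at chr9:57697363-57697632 (Cyp1a1), chr8:104733753-104734022 (Ces2a), chr19:39060756-39061025 (Cyp2c65) and chr19:39113648-39113917 (Cyp2c66). Capitals mark matches to the core bound by Ahr (GCGTG), a half-site of nuclear receptors (AGGTCA) or the antioxidant core bound by Nrf2 (TGACNNNGC, here read on the opposite strand).
Cyp1a1: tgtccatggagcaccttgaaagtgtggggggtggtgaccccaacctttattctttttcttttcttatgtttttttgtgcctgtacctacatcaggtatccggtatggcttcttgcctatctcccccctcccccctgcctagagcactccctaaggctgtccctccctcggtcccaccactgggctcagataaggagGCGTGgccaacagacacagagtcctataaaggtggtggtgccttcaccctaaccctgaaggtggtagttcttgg
Ces2a: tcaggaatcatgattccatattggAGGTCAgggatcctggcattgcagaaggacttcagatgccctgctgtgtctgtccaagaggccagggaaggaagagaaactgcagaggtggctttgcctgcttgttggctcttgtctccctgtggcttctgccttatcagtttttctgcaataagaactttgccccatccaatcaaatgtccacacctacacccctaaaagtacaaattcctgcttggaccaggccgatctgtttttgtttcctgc
Cyp2c65: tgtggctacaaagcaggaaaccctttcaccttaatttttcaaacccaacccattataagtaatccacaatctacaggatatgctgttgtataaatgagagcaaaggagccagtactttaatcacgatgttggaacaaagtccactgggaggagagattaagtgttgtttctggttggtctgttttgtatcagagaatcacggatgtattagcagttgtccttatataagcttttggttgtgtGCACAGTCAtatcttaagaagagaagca
Cyp2c66: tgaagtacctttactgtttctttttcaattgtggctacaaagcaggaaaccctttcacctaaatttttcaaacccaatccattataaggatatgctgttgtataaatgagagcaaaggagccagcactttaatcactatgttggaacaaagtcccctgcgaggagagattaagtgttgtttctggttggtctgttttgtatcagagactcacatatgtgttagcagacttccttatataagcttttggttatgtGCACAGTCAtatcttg

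In a window that ran 50 bases past the start site, the Ahr core of Cyp1a1 began at position -54 from the start site, and the half-site of Ces2a at position -226. Cyp2c65 and Cyp2c66 held the same antioxidant match close to the start site, and their aligned promoters were identical at 77.8% of columns, against 53.9% to 56.5% for the other pairs among Cyp2c29, Cyp2c55, Cyp2c65 and Cyp2c66. On both strands, GCGTG was found in 32.4% of 32851 promoters of all genes and 23.9% of the 46 promoters listed for 36 of the 40 genes. AGGTCA was found in 16.3% and 23.9%, TGACNNNGC in 12.4% and 15.2%, and the STAT core TTCNNNGAA in 8.3% and 2.17%, the last a single promoter of Mgst1. These matches are short letter runs and describe the sequences only.

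In control tumours most of the detoxifying genes were far below their level in control epithelial cells. Of the 38 genes, 32 fell and 1 rose at an adjusted p under 0.05 (limma, Benjamini-Hochberg over all genes tested), where 35.3% of all genes fell and 30.4% rose. The median difference of the 38 genes was -2.41 on the log2 scale, against -0.08 over all genes tested. For 31 of them every control tumour lay below every control epithelial array, as was so for 26.3% of all genes. The falls reached each role: 2 of 3 sensors, 13 of 15 cytochromes P450, 7 of 8 other phase I enzymes, 7 of 9 conjugating enzymes and 3 of 3 pumps. Without replicates 9 and 15, 31 fell and 2 rose (30% and 27.7% of all genes), and the median was -1.76. The 31 falls were all among the 32 seen with all arrays. All 15 enterocyte markers also fell, with a median of -2.39, or -1.41 without those arrays; their part in the result was not tested.

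**Figure D1:**
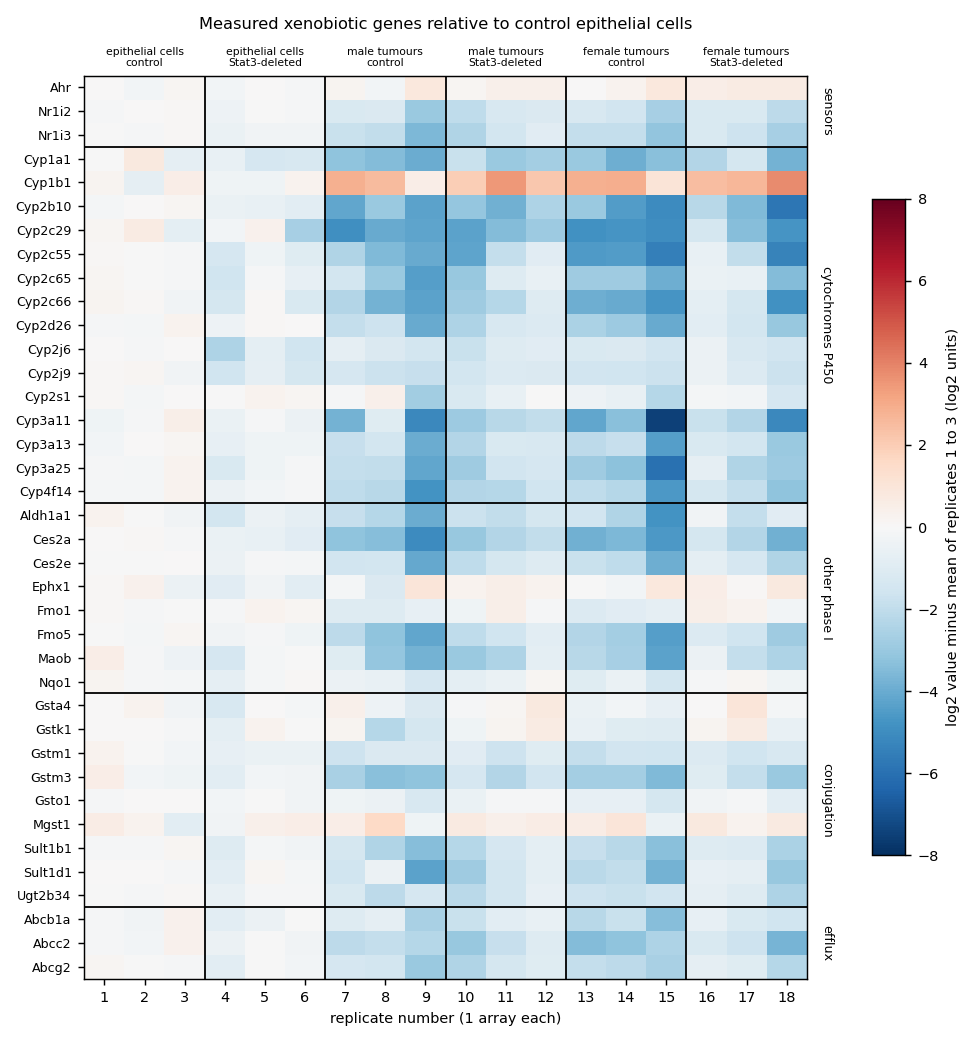
Each row is 1 of the 38 measured genes, grouped by role, and each column is 1 array; the colour gives the log2 value minus the mean of control epithelial replicates 1 to 3. Tumour columns are mostly blue, with replicates 9, 15 and 18 among the darkest, while Ahr, Cyp1b1, Ephx1 and Mgst1 are not below epithelial cells in most tumours.

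Among the sensors, Nr1i2 and Nr1i3 fell and Ahr did not pass. Nr1i2 was 9.52, 9.64 and 9.69 in control epithelial cells, 8.39, 8.44 and 6.65 in control male tumours and 8.31, 8.07 and 6.96 in control female tumours. All control tumours lay below the epithelial arrays, with replicates 9 and 15 lowest, and the difference was -1.82 ± 0.37 (SE; adjusted p 0.00059), or -1.32 without them. Nr1i3 was 8.94, 8.87 and 9.03 in the epithelial cells, 7.19, 7.0 and 5.36 in the male tumours and 7.06, 7.05 and 5.81 in the female tumours. Its control tumours also all lay below the epithelial arrays, with replicates 9 and 15 lowest. It fell by 2.37 ± 0.41 (limma, adjusted p 0.000176), or by 1.87 without replicates 9 and 15. Ahr was 8.04, 7.80 and 8.20 in the epithelial cells, 8.22, 7.81 and 8.88 in the male tumours and 8.03, 8.30 and 8.86 in the female tumours. Its groups overlapped, its highest values were in replicates 9 and 15, and the difference of 0.34 ± 0.20 did not pass (adjusted p 0.156), nor did that of 0.08 without them.

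The Ahr targets Cyp1a1 and Cyp1b1 went in opposite directions. Cyp1a1, which oxidises polycyclic aromatic compounds and whose promoter carries the Ahr core shown above, was 8.20, 9.0 and 7.55 in control epithelial cells, 5.01, 4.79 and 4.27 in control male tumours and 5.26, 4.36 and 4.91 in control female tumours. Every tumour lay more than 2 units below every epithelial array, a fall of 3.49 ± 0.43 or 11.2-fold (limma, adjusted p 8.11e-06). The difference was -3.40 without replicates 9 and 15. All control tumour values lay below the median of all probe sets on their arrays (5.88 to 5.96), so Cyp1a1 was dim there. Cyp1b1, an extrahepatic P450 of the same family that is also expressed in stromal cells, was 5.59, 4.66 and 5.92 in the epithelial cells, 8.26, 7.89 and 5.91 in the male tumours and 8.21, 8.28 and 6.39 in the female tumours. It rose by 2.10 ± 0.53 or 4.28-fold (adjusted p 0.00297), with replicates 9 and 15 the lowest tumours, and by 2.77 without them. Of 12 fibroblast markers, 11 also rose; their part in the rise of Cyp1b1 was not tested.

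The largest falls were in CYP2C, CYP3A and CYP2B genes, whose products oxidise many drugs and, for CYP2C, also fatty acids. Cyp2c29 was 8.97, 9.49 and 8.06 in control epithelial cells, 3.94, 4.79 and 4.62 in control male tumours and 3.98, 4.13 and 3.88 in control female tumours. It fell by 4.62 ± 0.64, or 24.6-fold (adjusted p 2.51e-05), with a difference of -4.63 without replicates 9 and 15, to values near the bottom of the scale: it exceeded the lower quartile of the array in 13 of 18 arrays. Cyp3a11 was 11, 11.24 and 11.84 in the epithelial cells, 7.60, 10.36 and 6.22 in the male tumours and 7.20, 8.02 and 3.87 in the female tumours. The tumours spread widely, with replicate 8 near the epithelial cells and replicate 15 lowest, and the fall of 4.15 ± 0.90 (adjusted p 0.000987) was 3.07 without replicates 9 and 15.

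Cyp2c55 was 9.84, 9.71 and 9.68 in the epithelial cells, 7.31, 6.20 and 5.69 in the male tumours and 5.22, 5.26 and 4.26 in the female tumours, a fall of 4.09 ± 0.79 (adjusted p 0.000426). Cyp2b10, the classical target of Nr1i3, was 11.56, 11.74 and 11.92 in the epithelial cells, 7.58, 8.76 and 7.45 in the male tumours and 8.77, 7.25 and 6.71 in the female tumours, a fall of 3.99 ± 0.58 (adjusted p 3.94e-05). In both genes all tumours lay below all epithelial arrays, and without replicates 9 and 15 the differences were -3.75 (Cyp2c55) and -3.65 (Cyp2b10). The other P450 genes that fell had differences of -3.84 (Cyp2c66), -3.36 (Cyp3a25), -3.07 (Cyp2c65), -2.98 (Cyp4f14), -2.84 (Cyp2d26), -2.60 (Cyp3a13), -1.64 (Cyp2j9) and -1.22 (Cyp2j6). In the same order, they were -3.53, -2.51, -2.53, -2.14, -2.26, -1.81, -1.56 and -1.07 without replicates 9 and 15. Cyp2s1, a P450 of epithelia at body surfaces, did not pass (-0.97 ± 0.56, and -0.18 without replicates 9 and 15).

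Among the other phase I enzymes, the carboxylesterase Ces2a, which hydrolyses ester drugs, fell the most, by 3.94 ± 0.45 or 15.4-fold (adjusted p 4.47e-06), with a difference of -3.50 without replicates 9 and 15. The flavin monooxygenases Fmo5 (-3.15) and Fmo1 (-0.90), the monoamine oxidase Maob (-2.84), the retinaldehyde dehydrogenase Aldh1a1 (-2.81), Ces2e (-2.47) and the quinone reductase Nqo1 (-0.91) also fell. Without those arrays they were -2.59 (Fmo5), -1.01 (Fmo1), -2.24 (Maob), -2.02 (Aldh1a1), -1.70 (Ces2e) and -0.65 (Nqo1). Ephx1, the microsomal epoxide hydrolase, differed by 0.05 ± 0.35 and did not pass, nor did its difference of -0.38 without replicates 9 and 15. Of the conjugating enzymes, the glutathione transferases Gstm3 (-3.03), Gstm1 (-1.51), Gstk1 (-1.01) and Gsto1 (-0.80), the sulfotransferases Sult1b1 (-2.44) and Sult1d1 (-2.38) and the glucuronosyltransferase Ugt2b34 (-1.62) fell. With those arrays left out they were -2.86 (Gstm3), -1.56 (Gstm1), -0.52 (Gsto1), -1.97 (Sult1b1), -1.56 (Sult1d1) and -1.70 (Ugt2b34). Gstk1 no longer passed without replicates 9 and 15 (-0.89, adjusted p 0.102). Gsta4 (-0.42, and -0.18 without them) and Mgst1 (0.46) did not pass, and Mgst1 did without those arrays (0.92, adjusted p 0.0259).

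The 3 pumps lie on the luminal side of the enterocyte and return drugs and conjugates to the gut lumen. Abcb1a (P-glycoprotein) was 11.79, 11.59 and 12.21 in control epithelial cells, 10.86, 11.14 and 9.25 in control male tumours and 9.63, 10.07 and 8.44 in control female tumours. Its fall of 1.97 ± 0.41 (adjusted p 0.000791) was 1.44 without replicates 9 and 15, the lowest array of each sex. Abcc2 (MRP2) was 11.68, 11.55 and 12.09 in the epithelial cells, 9.68, 9.84 and 9.48 in the male tumours and 8.32, 8.54 and 9.33 in the female tumours. It fell by 2.57 ± 0.46 (adjusted p 0.000204), replicate 15 was here the highest female control, and the difference was -2.68 without replicates 9 and 15. Abcg2 (BCRP) was 9.71, 9.51 and 9.48 in the epithelial cells, 8.25, 8.08 and 6.57 in the male tumours and 7.63, 7.48 and 6.97 in the female tumours. It fell by 2.07 ± 0.40 (adjusted p 0.000406), and by 1.71 without replicates 9 and 15.

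Further genes of the same pathways, from wider lists, gave a mixed picture in the same comparison, where 35.3% of all genes fell and 30.4% rose. Of 30 other cytochromes P450, 25 fell and 0 rose, with a median of -0.90. Of 48 other phase I genes 31 fell and 7 rose, of 35 other conjugating genes 20 fell and 2 rose, and of 19 receptor partners 11 fell and 0 rose, among them the liver X receptor Nr1h3 (-1.71). Of 25 other transporters 15 fell and 6 rose: the exporters Abcc1 and Abcc4 rose by 2.70 and 2.21, while Slc47a1 (-2.94) and the nucleoside carrier Slc28a1 (-3.65) fell. Of 20 Nrf2 targets 5 fell, including Srxn1 (-1.76), and 2 rose, Hmox1 by 1.72 and Slc7a11 by 2.74. Of 8 genes of the Ahr pathway 4 fell, including Tiparp (-0.56), and 1 rose, the co-chaperone Ptges3 (1.25). Without replicates 9 and 15, the lists gave 22 falls and 0 rises among the other P450 genes, 31 and 7 among the phase I genes, 19 and 2 among the conjugating genes, 9 and 0 among the receptor partners, 14 and 6 among the transporters, 5 and 3 among the Nrf2 targets and 4 and 1 in the Ahr pathway. Over all genes tested, 30% fell and 27.7% rose without those arrays. The genes named from these lists all passed in the same direction there, and the rise of Slc7a11 was 1.64.

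**Figure D2:**
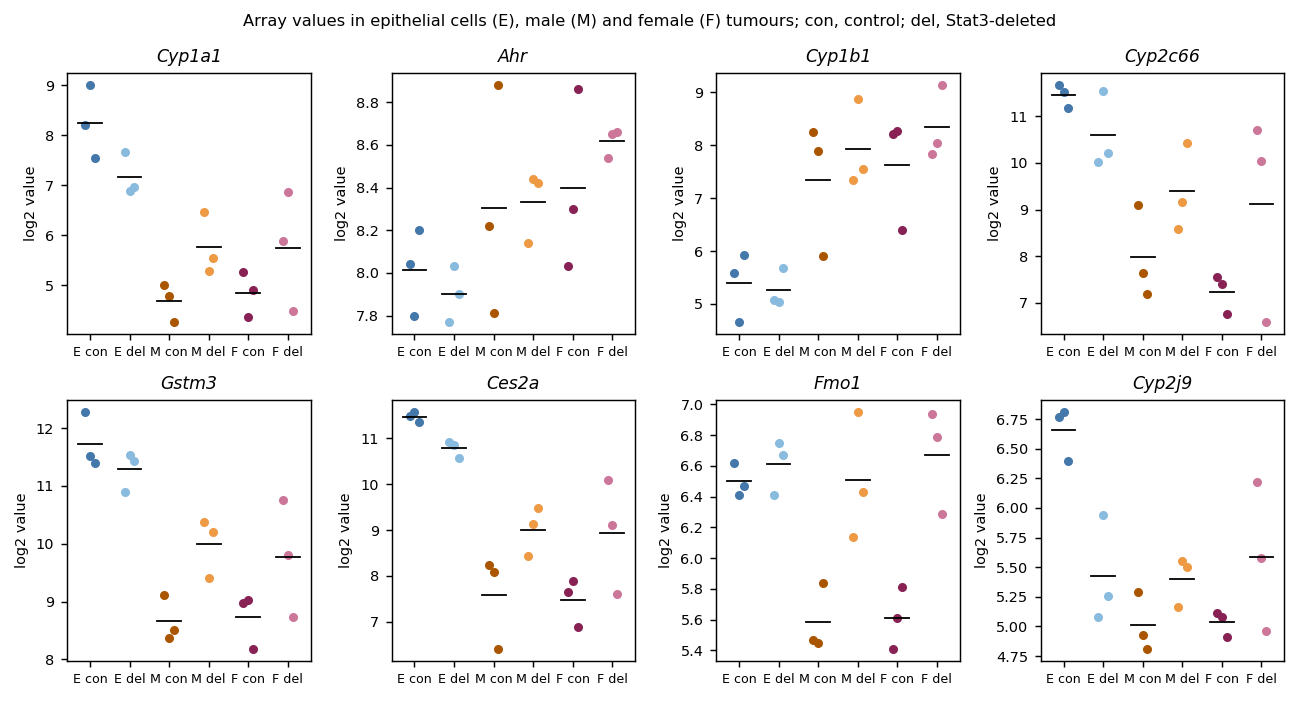
Each panel shows 1 gene; points are the 3 arrays of each group on the log2 scale and the line is the group mean (E, epithelial cells; M and F, male and female tumours; con, control; del, Stat3-deleted). Fmo1 is the gene whose 6 control tumours all lie below its 6 Stat3-deleted tumours. In Cyp1b1 and, by less, in Ahr every tumour group mean lies above both epithelial means. Single arrays overlap: control tumour replicate 9 of Cyp1b1 (5.91) lies just below epithelial replicate 3 (5.92).

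Against their own epithelial cells, a share of these genes close to that of all genes passed as lower in Stat3-deleted tumours. This held with all 18 arrays in the fit, although their median difference was lower than that of all genes. Against Stat3-deleted epithelial cells, 15 of the 38 genes (39.5%) fell and 3 (7.89%) rose, where 36.2% of all genes fell and 30.3% rose. The median difference was -1.21 against -0.07 over all genes. By role, 2 of 3 sensors, 6 of 15 cytochromes P450, 2 of 8 other phase I enzymes, 3 of 9 conjugating enzymes and 2 of 3 pumps fell. The largest falls were in Cyp2b10 (-2.83), Cyp2c29 (-2.51) and Cyp3a11 (-2.35), and Cyp1a1 (-1.42), Ces2a (-1.80), Abcc2 (-1.82), Nr1i2 (-1.31) and Nr1i3 (-1.35) also fell. Cyp3a11 no longer passed without replicate 4, 5, 6, 10 or 18 or in male tumours alone, and Cyp2c29 did not pass with arrays weighted by fit (-0.56). Leaving out the control arrays 9 and 15, which enter only the shared estimate of spread, gave 23 falls (60.5%) and 4 rises (10.5%). Over all genes these shares were 36.9% and 31.2%, so the count of members depended on that estimate. The difference between the control and deleted distances is the interaction tested further on.

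The 3 rises were in Cyp1b1, Ephx1 and Ahr. In the Stat3-deleted groups Cyp1b1 had epithelial values of 5.07, 5.04 and 5.69, male tumour values of 7.35, 8.87 and 7.56 and female tumour values of 7.83, 8.05 and 9.14, a rise of 2.87 ± 0.53 (adjusted p 0.000312) without overlap. Ephx1 was 7.22, 7.81 and 7.27 in the epithelial cells, 8.36, 8.56 and 8.41 in the male tumours and 8.62, 8.22 and 8.89 in the female tumours, again without overlap. It rose by 1.08 ± 0.35 (adjusted p 0.012), and without epithelial replicate 4 the adjusted p was 0.0562. Ahr was 7.77, 8.03 and 7.90 in the epithelial cells, 8.14, 8.44 and 8.42 in the male tumours and 8.54, 8.65 and 8.66 in the female tumours. It rose by 0.58 ± 0.20 (adjusted p 0.0209), but by 0.29 without passing after quantile normalisation, and it did not pass without epithelial replicate 4 or 6 or in male tumours alone.

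All 38 genes had higher mean values in Stat3-deleted than in control tumours, and 1 of them, Fmo1, passed the test. With male and female tumours averaged, 38 of 38 differences were above 0, as were 40.7% over all genes, and their median was 0.85 against -0.04. At an adjusted p under 0.05, 1 gene rose and 0 fell, where 0.289% of all genes rose and 0.422% fell. At an unadjusted p under 0.05 there were 20 of the 38 genes, or 52.6%, against 12% of all genes. Without replicates 9 and 15 the median was 0.39, 32 of 38 differences were above 0, 9 genes (23.7%, against 10.1% of all) had an unadjusted p under 0.05, and 1 passed (1.17% of all genes). The count depended on single arrays: without deleted replicate 18, 7 genes passed (Fmo1, Fmo5, Ces2a, Gstm3, Cyp1a1, Cyp2c55 and Cyp2c66), where 266 of all genes did, and without control replicate 7, 3 passed (Fmo1, Fmo5 and Gstk1), where 182 of all genes did. With each array weighted by how closely it followed its group, 18 of the 38 genes passed, all higher, among 1414 of all genes. The genes share arrays and cells, so these counts describe 12 tumours and not 38 separate findings.

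**Figure D3:**
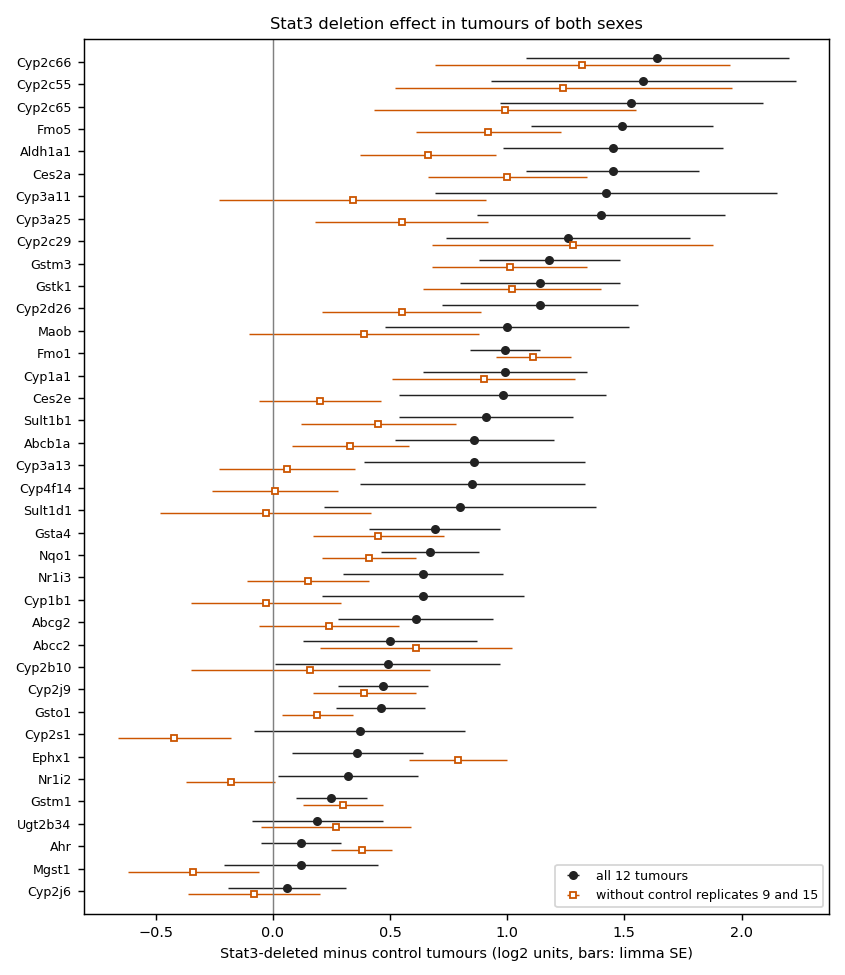
Points give the log2 difference of Stat3-deleted minus control tumours, both sexes averaged, for each of the 38 genes, with bars of 1 standard error; black circles use all 12 tumours and open squares leave out control replicates 9 and 15. All black circles lie above 0, 31 of the 38 differences are smaller without those arrays, and Fmo1 has a short bar in both.

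Fmo1 codes for a flavin monooxygenase that oxidises nitrogen and sulfur in drugs. It was 5.47, 5.45 and 5.84 in control male tumours and 6.14, 6.95 and 6.43 in Stat3-deleted ones, and 5.41, 5.61 and 5.81 in control female tumours against 6.94, 6.79 and 6.29 in Stat3-deleted ones. The 6 deleted tumours all lay above the 6 control tumours, as was so for 0.219% of all genes. Its difference was 0.99 ± 0.15, or 1.99-fold (adjusted p 0.00245), and 1.11 ± 0.16 without replicates 9 and 15 (adjusted p 0.00161). In male tumours alone it was 0.92 ± 0.21 (adjusted p 0.0982) and in female tumours 1.06 ± 0.21 (adjusted p 0.0643), neither of which passed; without replicates 9 and 15 the male value of 1.05 passed (adjusted p 0.0469), where 0.676% of all genes did.

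In epithelial cells Fmo1 did not follow the genotype. It was 6.62, 6.41 and 6.47 in control and 6.41, 6.75 and 6.67 in Stat3-deleted epithelial cells, a difference of 0.11 ± 0.21 that did not pass. Stat3-deleted tumours differed from Stat3-deleted epithelial cells by -0.02 ± 0.18, whereas control tumours had fallen by 0.90. The control tumour values lay below the median of all probe sets on an array, which was 5.88 to 6.07, so Fmo1 was a dim gene there. Fmo5, its relative, had a larger difference between the tumour genotypes that did not pass, 1.49 ± 0.39 (adjusted p 0.094), and 0.92 without replicates 9 and 15.

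Other genes had larger differences than Fmo1 with wider spread. Cyp2c66 was 9.10, 7.65 and 7.20 in control male tumours and 8.59, 9.16 and 10.42 in Stat3-deleted ones, and 7.56, 7.41 and 6.76 against 10.70, 10.05 and 6.59 in female tumours. The deleted female arrays held both the highest and the lowest tumour value, and the difference of 1.64 ± 0.56 did not pass (adjusted p 0.224), nor did that of 1.32 without replicates 9 and 15. Cyp2c55 was 7.31, 6.20 and 5.69 against 5.52, 7.82 and 8.81 in male and 5.22, 5.26 and 4.26 against 9.13, 7.75 and 4.38 in female tumours (1.58 ± 0.65, adjusted p 0.324; 1.24 without replicates 9 and 15). Cyp2c65 was 9.75, 8.23 and 6.82 against 8.19, 10.20 and 10.63 in male and 8.40, 8.36 and 7.32 against 10.68, 10.64 and 7.75 in female tumours (1.53 ± 0.56, adjusted p 0.255; 0.99 without replicates 9 and 15). In these neighbouring genes, deleted replicates 10 and 18 lay within or below the range of the control tumours, and replicate 16 was the highest tumour. Whether probes of 1 CYP2C gene also bind transcripts of its close copies was not tested.

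The hydrolase Ces2a was 8.24, 8.09 and 6.41 in control and 8.43, 9.13 and 9.47 in Stat3-deleted male tumours, which did not overlap, and 7.65, 7.90 and 6.88 against 10.09, 9.12 and 7.61 in female tumours, which did. Its difference of 1.45 ± 0.37 did not pass (adjusted p 0.0847), and it was 1.0 without replicates 9 and 15. Fmo5 was 9.45, 8.29 and 7.38 against 9.51, 9.90 and 10.71 in male and 9.20, 8.80 and 7.11 against 10.45, 9.92 and 8.67 in female tumours. Gstm3 (1.18, adjusted p 0.0773), Gstk1 (1.14), Nqo1 (0.67) and Cyp1a1 (0.99) did not pass either, and without replicates 9 and 15 they were 1.01, 1.02, 0.41 and 0.90. Aldh1a1 was 9.48, 9.04 and 7.33 against 9.62, 9.38 and 9.93 in male and 9.81, 8.91 and 6.55 against 11.05, 9.43 and 10.44 in female tumours; its difference fell from 1.45 to 0.66 without replicates 9 and 15.

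Cyp3a11 and other genes had much smaller differences without those arrays. Cyp3a11 was 7.60, 10.36 and 6.22 in control and 8.48, 9.12 and 9.37 in Stat3-deleted male tumours, and 7.20, 8.02 and 3.87 against 9.57, 9.04 and 6.22 in female tumours. The genotypes overlapped in both sexes, and the difference of 1.42 ± 0.73 was 0.34 ± 0.57 without replicates 9 and 15. Cyp3a25 was 9.43, 9.36 and 7.17 against 8.52, 9.79 and 10.02 in male and 8.48, 8.08 and 5.39 against 10.60, 8.94 and 8.43 in female tumours. Its difference went from 1.40 to 0.55, that of Cyp3a13 from 0.86 to 0.06 and that of Cyp4f14 from 0.85 to 0.01. Sult1d1 (0.80 to -0.03), Cyp2s1 (0.37 to -0.42), Cyp1b1 (0.64 to -0.03), Nr1i2 (0.32 to -0.18), Mgst1 (0.12 to -0.34) and Cyp2j6 (0.06 to -0.08) changed sign; none of these values passed.

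None of the sensors and pumps passed between the tumour genotypes. In Stat3-deleted male and female tumours, Nr1i2 was 7.60, 8.36 and 8.45, and 8.39, 8.38 and 7.54, against the control values given above. Nr1i3 was 6.52, 7.47 and 8.03, and 7.70, 7.31 and 6.31. The genotypes overlapped for both receptors and for Ahr, and the differences of 0.32 (Nr1i2), 0.64 (Nr1i3) and 0.12 (Ahr) did not pass. They were -0.18, 0.15 and 0.38 without replicates 9 and 15, and none passed. Abcb1a was 10.08, 11.04 and 11.26, and 11.22, 10.64 and 10.28 (0.86, adjusted p 0.298); its female arrays did not overlap with the controls. Abcc2 was 8.73, 9.95 and 10.77, and 10.55, 10.12 and 8.08 (0.50), and Abcg2 was 7.14, 8.17 and 8.60, and 8.85, 8.60 and 7.28 (0.61), both with overlap. The pumps differed by 0.33 (Abcb1a), 0.61 (Abcc2) and 0.24 (Abcg2) without replicates 9 and 15. From the wider lists, 1 of 30 other cytochromes P450, Cyp4f16 (0.84 ± 0.18, adjusted p 0.0395), rose in tumours of both sexes. So did 1 of 19 receptor partners, the nuclear receptor Nr0b2 (0.88 ± 0.15, adjusted p 0.00821). The other wider lists held no gene that passed, and 0.289% of all genes rose. Nr0b2 also passed without replicates 9 and 15 (0.77, adjusted p 0.025) and Cyp4f16 did not (0.71, adjusted p 0.121).

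Enterocyte markers moved with these genes from array to array. In tumours the array median of the 38 genes was 9.11, 8.47 and 7.29 in control and 8.55, 9.27 and 9.62 in deleted males, and 8.51, 8.38 and 7.09 in control and 9.88, 9.16 and 8.39 in deleted females. The enterocyte means of the same arrays were 10.99, 11.04 and 8.61, then 10.52, 10.90 and 11.49, then 10.85, 10.62 and 8.37, then 11.47, 10.94 and 10.12. Replicates 9 and 15 were lowest and replicates 12 and 16 highest on both measures. All 15 enterocyte markers had a difference above 0 between the tumour genotypes, with a median of 0.79 and 0 passing; without replicates 9 and 15, 7 of 15 were above 0 and the median was -0.03. The median of the 38 genes went from 0.85 to 0.39. The part of enterocyte content in the Stat3 comparison was not tested.

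Markers of gut position also differed between the tumour genotypes. The mean of 8 ileal markers was 7.53, 8.81 and 6.26 in control and 6.18, 6.33 and 6.78 in Stat3-deleted male tumours, and 6.44, 7.14 and 6.71 against 6.74, 6.35 and 5.98 in female tumours, with control replicate 8 the highest. Of these markers 6 were lower in deleted tumours, with a median of -0.45, and 1 fell, the bile acid carrier Slc10a2 (-2.03, adjusted p 0.000315). Without replicates 9 and 15 all 8 were lower, with a median of -0.61, and 3 fell: the bile acid binding protein Fabp6 (-3.60), Slc10a2 (-2.12) and Plb1 (-1.06). Of 8 proximal markers tested 7 were higher, with a median of 0.56, or 5 with a median of 0.21 without those arrays, and none passed. With all arrays, 6 of 10 colon markers were lower in deleted tumours, with a median of -0.26, and none passed. These arrays included control replicates 9 and 15, whose colon means (7.35 and 7.37) were the highest of the tumours. The part of gut position in the Stat3 comparison was not tested.

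**Figure D4:**
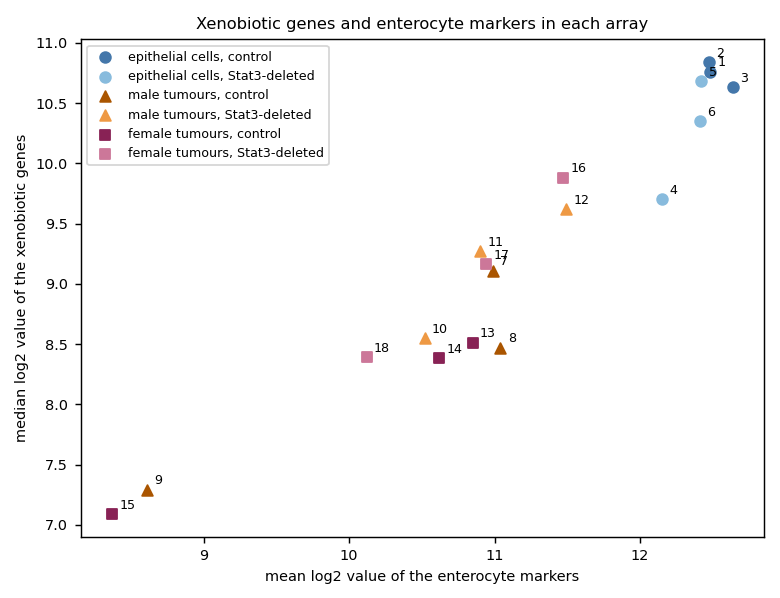
Each point is 1 array, labelled by its replicate number: the horizontal axis is the mean log2 value of 15 enterocyte markers and the vertical axis the median log2 value of the 38 genes. The 6 epithelial arrays lie at the upper right and control tumours 9 and 15 at the lower left; the other 10 tumours lie between them on the horizontal axis, and tumour 16 (9.88) lies above epithelial replicate 4 (9.70) on the vertical axis.

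In each sex alone no member passed. In male tumours 36 of 38 differences were above 0 with a median of 0.74, 0 genes passed (0.231% of all genes) and 6 (15.8%, against 7.52% of all) had an unadjusted p under 0.05. There, 5 genes were higher in every deleted than in every control array (2.06% of all genes): Cyp1a1, Ces2a, Gstm3, Fmo1 and Fmo5. In female tumours 38 of 38 were above 0 with a median of 0.89, 0 passed (0.104% of all genes) and 12 (31.6%, against 5.03%) had an unadjusted p under 0.05. Here too 5 genes were higher without overlap (5.2% of all genes): Cyp2c29, Gsta4, Abcb1a, Nqo1 and Fmo1. For Cyp2c29 the nearest arrays almost met, at 4.15 in deleted replicate 18 and 4.13 in control replicate 14. Both lay below the lower quartile of their arrays (4.31 and 4.32). For Gsta4 the same arrays were 10.49 and 10.42. Without replicates 9 and 15 the medians were 0.22 in males and 0.64 in females. Differences above 0 were then 29 of 38 in males and 33 of 38 in females, against 43.1% and 43.9% of all genes. At an unadjusted p under 0.05 (limma) there were then 6 of the 38 genes (15.8%) in each sex. Single arrays changed the counts of genes that passed. In males Gstk1 passed without replicate 7. In females Fmo1 passed without replicate 10, 11 or 18, and Cyp2c66 without replicate 18. With weighted arrays 12 of the 38 genes passed in females, all higher, among 745 of all genes.

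The deletion effect was not shown to differ between the sexes. Female minus male effects had a median of 0.18, or 0.30 without replicates 9 and 15, and 0 genes passed, with 0 at an unadjusted p under 0.05 against 0.936% of all genes; 0% of all genes passed. The largest were in Cyp3a25 (1.21 ± 1.07), Cyp2c55 (1.19 ± 1.29) and Cyp3a11 (0.98 ± 1.46), whose standard errors were about as large as the values; without replicates 9 and 15 they were 0.99, 1.22 and 0.66. Between male and female tumours of both genotypes, 0 genes passed (0.0231% of all genes) and 0 had an unadjusted p under 0.05 (6.13% of all genes). The largest differences, male minus female, were 1.20 ± 0.73 in Cyp3a11, 0.89 ± 0.65 in Cyp2c55 and 0.73 ± 0.53 in Cyp3a25, and 1.04, 0.91 and 0.62 without replicates 9 and 15.

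In epithelial cells the values after Stat3 deletion were mostly lower, and no gene passed. Of 38 differences, 35 were below 0, the median was -0.41 against 0.00 over all genes, 0 passed (0.0231% of all genes) and 4 (10.5%, against 6.8% of all) had an unadjusted p under 0.05. For 12 genes the deleted arrays all lay below the control arrays, as was so for 7.81% of all genes. Cyp2j6, an epoxygenase of fatty acids, was 10.52, 10.41 and 10.49 in control and 8.01, 9.68 and 8.88 in deleted cells (-1.61 ± 0.36, adjusted p 0.398). Its relative Cyp2j9 was 6.77, 6.81 and 6.40 against 5.08, 5.94 and 5.26 (-1.24 ± 0.27, adjusted p 0.388). Neither overlapped between genotypes, and both were lowest in replicate 4. Cyp1a1 was 7.67, 6.88 and 6.96 in deleted cells, and its range met that of the controls (-1.08 ± 0.49, adjusted p 0.722).

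Replicate 4 was the lowest of the 6 epithelial arrays for 28 of the 38 genes. Without it the median difference was -0.21. The same array had the highest mean of 19 T and NK cell markers, 8.35, against 7.28 and 7.04 in replicates 5 and 6 and 6.43 to 6.86 in control epithelial cells; for example Cd3e was 9.39, 8.04 and 7.93 in the deleted and 7.19, 7.26 and 7.73 in the control arrays. All 19 had a difference above 0, with a median of 1.03 and 0 passing. Enterocyte means were 12.15, 12.42 and 12.41 in the deleted and 12.47 to 12.64 in the control arrays. The part of either in the values was not tested. With weighted arrays 5 genes passed, all lower, among 1134 of all genes: Cyp1a1, Cyp2c29, Cyp2j6, Cyp2j9 and Ephx1.

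The effect of Stat3 deletion in tumours minus that in epithelial cells was above 0 for 37 of 38 genes, with a median of 1.23, or 0.87 without replicates 9 and 15. No gene passed (0.0116% of all genes), and 18 (47.4%, against 9.38%) had an unadjusted p under 0.05. The largest values were in Cyp2c66 (2.50 ± 0.98, adjusted p 0.503), Cyp2c55 (2.47 ± 1.12, adjusted p 0.516) and Aldh1a1 (2.35 ± 0.81, adjusted p 0.486), and without replicates 9 and 15 they were 2.19, 2.14 and 1.56. Aldh1a1 was 11.62, 11.32 and 11.04 in control and 9.84, 10.86 and 10.60 in deleted epithelial cells, so its deleted arrays were the lower ones there. Cyp2j9 had the smallest p, with 1.71 ± 0.33 (adjusted p 0.153); it passed without deleted replicate 18 (1.87, adjusted p 0.024), and with weighted arrays 12 of the 38 genes passed, all above 0, among 1038 of all genes. The interaction of Fmo1 was 0.88 ± 0.25 (adjusted p 0.471), or 0.99 without replicates 9 and 15. With all 18 arrays weighted equally, no single gene was shown to lie closer to its epithelial cells in Stat3-deleted than in control tumours.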

How the data were processed

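RNA was measured on 18 Affymetrix arrays in 6 groups of 3, read from the sample titles. The deposited log2 values were made with RMA, per the submitters' processing notes. Its version was not given in the sources used here. Values ran from 1.33 to 14.6 over 35556 probe sets, and the number of arrays limits the precision. The platform annotation gave a single symbol for 21789 of them and several for 1621, which stayed unnamed; it had no entry for 12146.

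In limma 3.58.1 (R 4.3.3), a model with 1 mean for each of the 6 groups and an intensity trend was fitted to all 17316 genes that passed the filter, for 9 comparisons with two-sided tests and Benjamini-Hochberg adjustment at 0.05. The tests were checked on simulated data. Values in every array are given for genes that passed in a Stat3 comparison, for the 3 largest rises and falls of each tissue comparison, for the 3 largest differences of comparisons with fewer than 3 passing, and for sensors and pumps. From each wider list, up to 3 passing genes per direction, taken by p, could be named. The members and lists were chosen with earlier results of these data known. Alternatives were quantile normalisation, median centring, no or a stricter filter, no trend, array weights, mean over probe sets, only the compared groups, male tumours alone, leaving out each replicate, and leaving out replicates 9 and 15. Promoters came from RefSeq tables on GRCm38.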

Additional observations from a re-analysis of the deposited data

Results flagged for a closer look

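Ces2a was the only member whose Stat3-deleted arrays lay on opposite sides of the controls in a pair of settings, with no overlap in either. In epithelial cells the deleted arrays (10.91, 10.86 and 10.56) all lay below the controls (11.49, 11.57 and 11.35), a difference of -0.70. In male tumours the deleted arrays (8.43, 9.13 and 9.47) all lay above the controls (8.24, 8.09 and 6.41), a difference of 1.43, or 0.85 in the fit without control replicates 9 and 15. Neither effect passed. The male tumour effect minus the epithelial one was 2.13, and this difference was not tested for male tumours alone. With both sexes averaged it was 2.14 ± 0.64 and did not pass (limma, adjusted p 0.474), nor without replicates 9 and 15 (1.70, adjusted p 0.443).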

How the results depend on the processing

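No paired analysis was possible because the replicate numbers 1 to 18 are unique over the series. With array weights the count of the 38 genes that passed became 5 for Stat3 deletion in epithelial cells, 12 in female tumours, 18 in tumours of both sexes and 12 for tumours minus epithelial cells; without control replicates 9 and 15 it became 1 in male tumours. Leaving out 1 replicate at a time, the counts ran from 0 to 1 in male tumours, from 0 to 2 in female tumours, from 1 to 7 in both sexes and from 0 to 1 for tumours minus epithelial cells. The female minus male effect of Cyp3a11 was -0.25 with array weights and ran from -0.26 to 2.01 over the fits without 1 replicate (-0.17 without replicate 8), and that of Fmo1 ran from -0.04 to 0.36; none of these effects passed. Over the results for single genes, 976 values kept their direction and side of the threshold, 17 newly passed, 12 no longer passed and 4 changed sign. Fmo1 in tumours of both sexes passed under each alternative run, with adjusted p from 0.00106 to 0.0103 when single replicates were left out and 0.0365 with only the tumour arrays fitted. The cause of these changes was not tested. No signal over background is known here. Dim values, such as those of Cyp1a1, Cyp2c29 and Fmo1 in control tumours, therefore cannot be set against a detection limit.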

Other observations

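Gstm3 was the only member with a second probe set. Its mean over all arrays was 10.03 for the probe set used and 9.34 for the other. The other was 8.38, 6.43 and 7.30 in control and 9.89, 8.78 and 9.70 in Stat3-deleted male tumours, and 8.14, 8.36 and 6.95 against 10.15, 9.19 and 7.83 in female tumours. Both probe sets were higher in every deleted than in every control male tumour, and both overlapped in females. Whether either probe set also binds transcripts of related genes such as Gstm1 was not tested.

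Across the 12 tumours, replicate 9 had the lowest value for 15 of the 38 genes and replicate 15 for 13, while replicate 16 had the highest for 17 and replicate 12 for 8. Replicate 18 was the lowest of the 6 Stat3-deleted tumours for 26 genes.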
